A study of Mus musculus with 9 samples.

Results

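The 45 genes described here carry cells through the division cycle. They were taken from a list of symbols drawn up for cell proliferation in the liver, and all 45 were found among the 22701 genes of the table. They were grouped by role into 6 cyclins, kinases and transcription factors of G1 and S phase, 11 genes of DNA replication and nucleotide supply, and 28 genes of mitosis. The mitotic genes comprise 8 cyclins, kinases and regulators of G2 and M phase, 9 checkpoint and chromosomal passenger genes, and 11 genes of the kinetochore, spindle, chromosomes and cytokinesis. RNA was sequenced from 9 livers of mice aged 5 weeks on a C57BL/6, 129svPas background. HP1ag_KO (3 livers) had the genotype HP1a-/- with HP1g deleted in the liver, HP1ab_KO (1 liver) was HP1a-/- with HP1b deleted in the liver, HP1a_KO (2 livers) was HP1a-/- alone, and WT (3 livers) carried none of these deletions. All 6 mutant livers thus carried the HP1a-/- genotype, and the Cre line behind the liver deletions is not given in the sources used here. HP1 proteins bind methylated histone H3 and help to form heterochromatin, and the title of the series names them as tumour suppressors of mouse liver.

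A dividing cell raises D and E cyclins in G1, which activate kinases that free E2F transcription factors from the retinoblastoma protein. E2F factors switch on replication genes, and later the MuvB complex with B-Myb and Foxm1 switches on mitotic genes, many of them through the CHR promoter element and neighbouring NF-Y sites. The liver of a young mouse is still growing, while most adult hepatocytes rest outside the cycle. In whole liver these transcripts can come from hepatocytes or from any other dividing cell, and a lower share of cycling cells cannot be told apart from less RNA per cell.

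Promoters are shown for the replication genes and the mitotic genes with the highest mean values whose windows held a motif. Each window runs from 250 bases before to 50 bases after the start site, 5′ to 3′ on the strand of the gene, from RefSeq on GRCm38.p6. Capitals mark letters that match a searched motif on either strand: TTCCCGC or TTGGCGC or TTCGCGC or TTGCCGC for E2F, TTTGAA for CHR and CCAAT for NF-Y. Matches may overlap.
Pcna (chr2:132253131-132253430, minus strand): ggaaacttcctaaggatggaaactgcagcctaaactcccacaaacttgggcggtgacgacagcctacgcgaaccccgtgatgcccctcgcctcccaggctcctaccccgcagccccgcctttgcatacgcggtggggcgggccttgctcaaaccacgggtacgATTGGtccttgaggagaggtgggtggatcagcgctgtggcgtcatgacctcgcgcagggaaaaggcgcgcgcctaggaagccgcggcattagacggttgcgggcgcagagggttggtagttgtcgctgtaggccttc
Mcm6 (chr1:128359656-128359955, minus strand): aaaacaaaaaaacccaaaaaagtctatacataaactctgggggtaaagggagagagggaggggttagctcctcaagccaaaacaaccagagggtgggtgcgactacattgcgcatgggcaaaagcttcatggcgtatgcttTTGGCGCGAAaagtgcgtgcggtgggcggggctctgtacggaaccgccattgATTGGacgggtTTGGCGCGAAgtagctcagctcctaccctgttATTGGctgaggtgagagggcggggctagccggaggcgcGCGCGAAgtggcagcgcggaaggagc
Mki67 (chr7:135716330-135716629, minus strand): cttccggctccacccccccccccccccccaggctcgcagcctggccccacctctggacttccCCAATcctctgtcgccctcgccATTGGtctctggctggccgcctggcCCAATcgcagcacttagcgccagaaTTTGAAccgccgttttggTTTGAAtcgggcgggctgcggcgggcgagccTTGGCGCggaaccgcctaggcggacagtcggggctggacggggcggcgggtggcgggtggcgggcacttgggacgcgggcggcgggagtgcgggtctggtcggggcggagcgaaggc
Top2a (chr11:99024140-99024439, minus strand): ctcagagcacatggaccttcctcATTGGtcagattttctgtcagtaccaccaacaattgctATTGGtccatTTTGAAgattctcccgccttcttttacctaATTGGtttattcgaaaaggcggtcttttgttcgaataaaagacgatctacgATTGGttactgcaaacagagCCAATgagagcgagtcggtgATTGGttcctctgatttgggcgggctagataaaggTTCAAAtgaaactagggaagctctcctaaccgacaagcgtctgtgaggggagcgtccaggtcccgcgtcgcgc

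The Top2a and Mki67 windows held both CHR and NF-Y letters, and the Mki67 window also held an E2F match. The Mcm6 window held 5 E2F matches, of which some overlap on opposite strands, whereas the Pcna window held an NF-Y match alone. RefSeq windows were matched for 36 members (38 windows, since a gene can have several starts). Those not matched were Aurkb, Mcm4, Ccna2, Kif20a, Foxm1, Tpx2, Ccnd1, Ccnd2 and Ccne2. CHR letters were found in 18 of 24 windows of mitotic members (75.0%), in 1 of 11 windows of replication members (9.09%) and in 17.9% of all 32851 promoter windows. E2F letters were found in 3 of 24 mitotic windows (12.5%), in 8 of 11 replication windows (72.7%) and in 9.57% of all windows. NF-Y letters were common to both roles, in 21 of 24 mitotic windows (87.5%) and 9 of 11 replication windows (81.8%), against 37.4% of all windows. In 18 of 24 mitotic windows (75.0%) CHR and NF-Y letters occurred together, as they did in 6.95% of all windows. These are matches of letters and do not show binding.

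**Figure D1:**
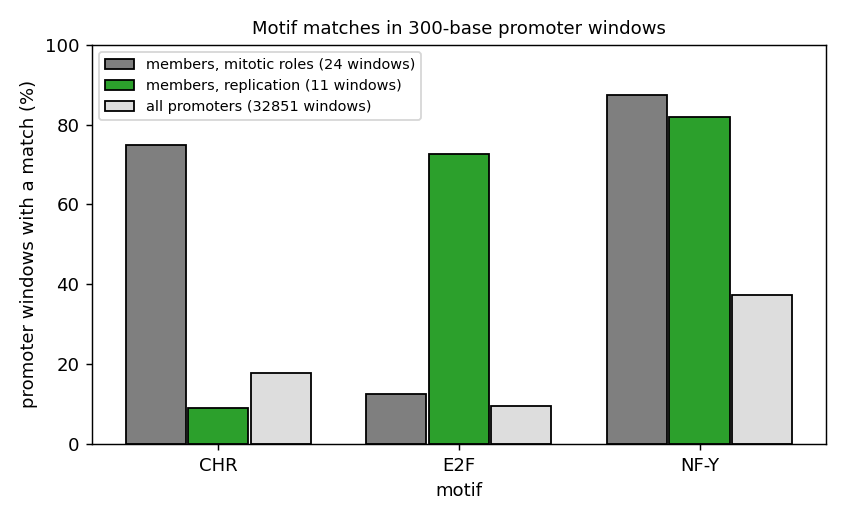
Share of 300-base promoter windows (%) with a match to CHR, E2F or NF-Y letters, for mitotic members (24 windows), replication members (11 windows) and all promoters (32851 windows). CHR matches are in 75.0% of mitotic windows, and E2F matches in 72.7% of replication windows.

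Values are normalised read counts, that is, reads per gene divided by 1 size factor per library. HP1a_KO replicate 1 was the shallowest library, with 16266423 reads in genes, and the others ranged between 26375545 and 36161177. The first principal component of all genes held slightly more of the variance than the second. Its ends were HP1ag_KO replicate 2 (score 44.7) and HP1a_KO replicate 1 (score -41.2), with HP1a_KO replicate 2 at -24.3. WT replicate 1 and HP1ag_KO replicate 1 stood apart from the rest at opposite ends of the second component. Results are also given without single libraries. Cbx5, which encodes HP1a, averaged 743 ± 75.8 in HP1ag_KO, 663 in HP1ab_KO and 538 ± 53.3 in HP1a_KO, against 1235 ± 279 in WT. Cbx3, which encodes HP1g, averaged 349.7 ± 27.5 in HP1ag_KO against 605 ± 59.7 in WT, and Cbx1, which encodes HP1b, was at 217 in HP1ab_KO against 917 ± 146 in WT. Hepatocyte markers summed to between 3106606 and 3980586 in each library. Errors are SD, with n = 3 in HP1ag_KO and WT and n = 2 in HP1a_KO, while HP1ab_KO has a single library and no SD. Differences are on the log2(value + 1) scale with SE from 1 limma fit of all 9 libraries, which takes the spread of the other genotypes for the single HP1ab_KO library. Its p-values were adjusted over 13845 genes with a mean of at least 10, which included all 45 members.

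Cell cycle transcripts ranged widely between livers of the same genotype, and the genotypes overlapped in their sums. The values of the 28 mitotic genes summed to 4280, 2364 and 6485 in the 3 HP1ag_KO livers, 4075 in the HP1ab_KO liver, 2712 and 4914 in the HP1a_KO livers, and 1991, 7341 and 3853 in the WT livers. The lowest and the highest sum of all 9 livers were thus both from WT, and the groups overlapped throughout. By genotype the sums averaged 4376 ± 2062 in HP1ag_KO and 3813 ± 1557 in HP1a_KO, against 4395 ± 2716 in WT. The 11 replication genes summed to 3614, 2836 and 3813 in HP1ag_KO, 3657 in HP1ab_KO, 3073 and 4088 in HP1a_KO, and 2682, 4900 and 3399 in WT. They kept a similar order with a narrower range, and here too WT held both ends. The 6 genes of G1 and S summed to 2024, 1403 and 2406 in HP1ag_KO, 2362 in HP1ab_KO, 2354 and 2829 in HP1a_KO, and 2369, 2046 and 1700 in WT, an order that differed from that of the mitotic genes. Ccnd1 weighs most in this sum, with a mean of 1209 over the livers, followed by Ccnd2 with 358. With each gene counted alike, as log2(value + 1) minus its mean, the HP1a_KO livers were the highest (0.39 and 0.38). WT replicate 1 came next (0.30), and HP1ag_KO replicate 2 was the lowest (-0.80).

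In limma 0 of 45 members passed an adjusted p of 0.05 in each of the 5 comparisons. The same fit called 0 of 13845 genes in each (0%), so the members' count can be read only against that background. At an unadjusted p under 0.05 it gave 1 member for HP1ag_KO against WT (7.58% of all genes), 1 for HP1a_KO against WT (10.1% of all genes), 1 for HP1ab_KO against WT (3.7% of all genes), 0 for all 6 HP1a-null livers against WT (6.31% of all genes) and 2 for HP1ag_KO against HP1a_KO (16.2% of all genes). On the recovered reads edgeR called 0 members and 0 genes in each comparison. DESeq2 called 1 member, Ccnd2, for HP1ag_KO against HP1a_KO (3.3% of all genes) and 0 members in the other comparisons, where it called 99 genes (HP1ag_KO, 0.715%), 87 (HP1a_KO, 0.628%), 11 (HP1ab_KO, 0.0795%) and 46 (all 6, 0.332%). Its 457 genes for HP1ag_KO against HP1a_KO became 29 or 72 when HP1a_KO replicate 1 or 2 was left out, and 132 or 202 when HP1ag_KO replicate 2 or 3 was. The median log2 difference of the members was 0.03 for HP1ag_KO, -0.03 for HP1a_KO, 0.14 for HP1ab_KO and 0.01 for all 6 mutant livers against WT, and 0.10 for HP1ag_KO against HP1a_KO, beside medians between -0.016 and -0.0016 over all genes tested. The sign of the members' median turned with edgeR and DESeq2 for HP1ag_KO and for all 6 mutant livers against WT, and with DESeq2 for HP1ab_KO. The HP1ag_KO and HP1a_KO comparisons with WT share the WT livers, so their differences are not independent.

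**Figure D2:**
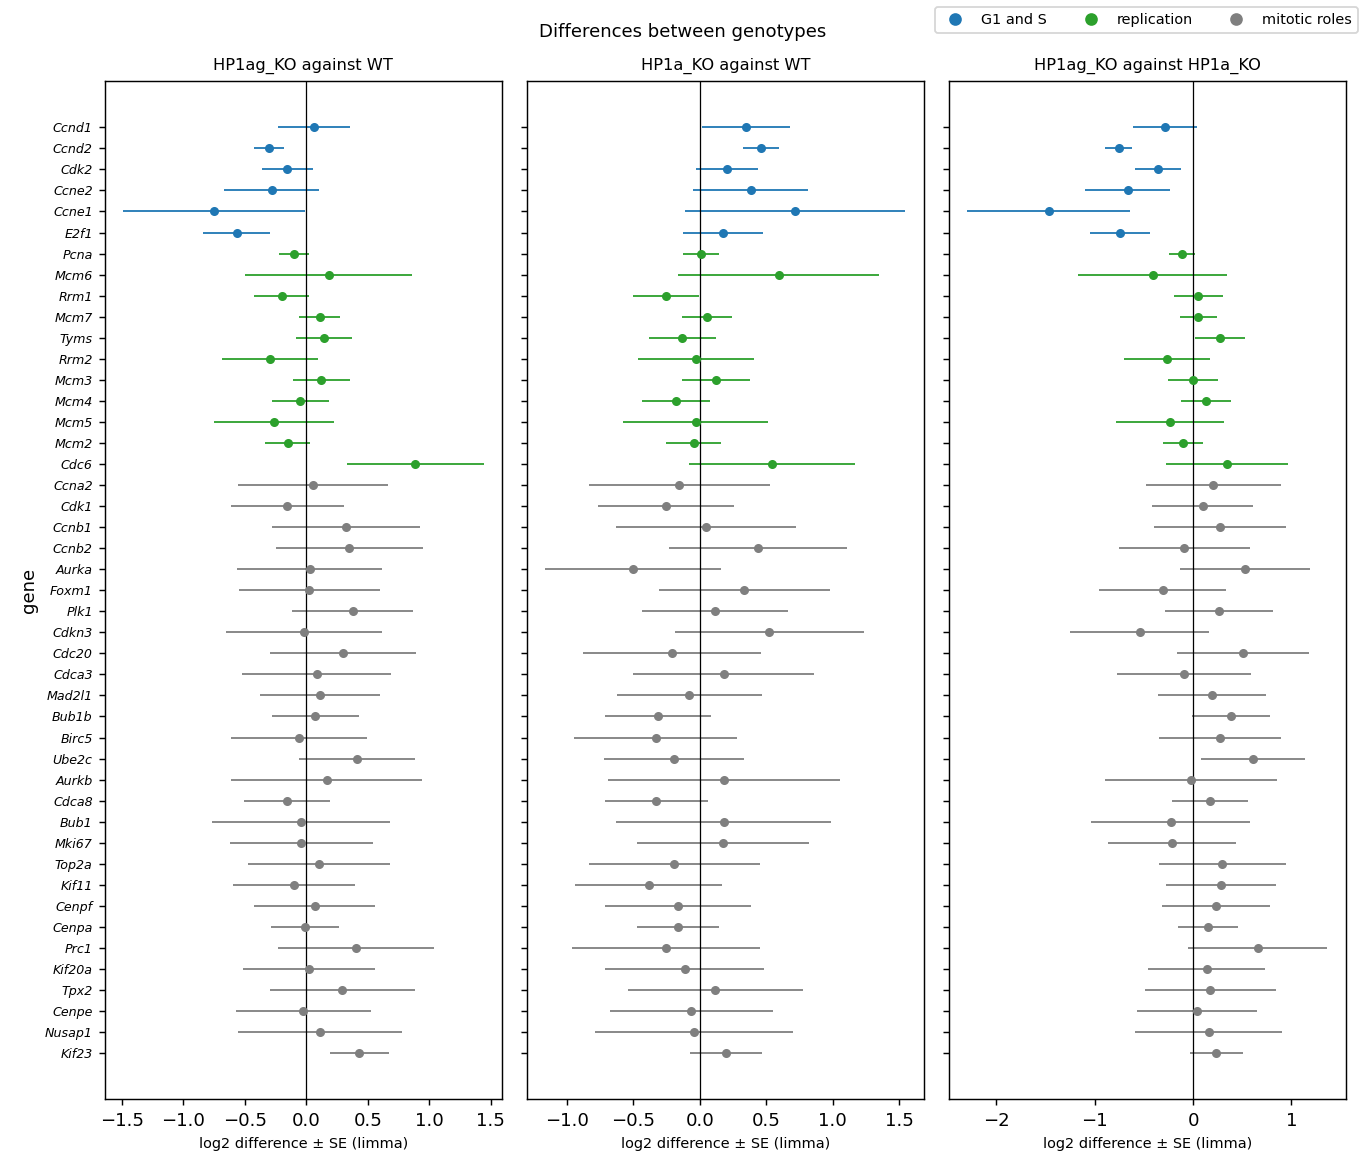
Log2 difference (points) with SE (bars) of each of the 45 genes for HP1ag_KO against WT, HP1a_KO against WT and HP1ag_KO against HP1a_KO, from limma. Most bars of mitotic genes (grey) cross 0, and the 6 genes of G1 and S (blue) all lie below 0 in the comparison of HP1ag_KO with HP1a_KO.

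Among the genes of G1 and S, the D cyclins start the cycle in response to growth signals. Ccnd1 (cyclin D1, chr7:144929931-144939925, GRCm38), the main D cyclin of dividing hepatocytes, had 1185, 751 and 1549 in HP1ag_KO, 1361 in HP1ab_KO, 1084 and 1695 in HP1a_KO, and 1369.7, 1018 and 867 in WT. Every group overlapped the others. Its log2 difference was 0.06 ± 0.29 for HP1ag_KO and 0.35 ± 0.33 for HP1a_KO against WT (limma adjusted p = 0.975 and 0.723).

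Ccnd2 (cyclin D2, chr6:127125162-127152193) was the member with the least spread within genotypes among those of G1 and S. It had 289.8, 296 and 259 in HP1ag_KO, 381 in HP1ab_KO, 484 and 468 in HP1a_KO, and 389.6, 308 and 346 in WT. The 3 HP1ag_KO livers lay below all other livers and the 2 HP1a_KO livers above all others. Ccnd2 was lower in HP1ag_KO than in HP1a_KO by a log2 difference of -0.76 ± 0.14 (95% interval -1.07 to -0.44), which did not pass limma (adjusted p = 0.127) or edgeR (adjusted p = 0.139) and passed DESeq2 (adjusted p = 0.00261). Without HP1a_KO replicate 1, HP1a_KO replicate 2 or HP1ag_KO replicate 3 the DESeq2 call was lost, with adjusted p = 0.22, 0.189 and 0.067, and without HP1ag_KO replicate 1 or HP1ag_KO replicate 2 it was kept, with adjusted p = 0.0155 and 0.0339. These runs of DESeq2 were chosen after the data had been seen. In limma the log2 difference stayed between -0.79 and -0.70 when single libraries of the 2 groups were left out. Against WT the log2 difference was -0.30 ± 0.12 for HP1ag_KO (limma adjusted p = 0.634) and 0.46 ± 0.14 for HP1a_KO (limma adjusted p = 0.432). Cells other than hepatocytes can also carry Ccnd2. The marker sums of 3 lists of such cells were also higher in all HP1a_KO livers than in all HP1ag_KO and WT livers. The sums of the other cell type lists did not separate in this way. The 12 Kupffer cell and macrophage markers, all tested, summed to between 20091 and 27799 in HP1ag_KO, 30559 in HP1ab_KO, between 28946 and 32064 in HP1a_KO, and between 19772 and 22661 in WT. The 10 stellate cell and fibroblast markers summed to between 16910.0 and 18613 in HP1ag_KO, 20513 in HP1ab_KO, between 20141 and 21775 in HP1a_KO, and between 12682 and 18607 in WT. The 10 neutrophil markers, of which 4 were tested, summed to between 84.1 and 227 in HP1ag_KO, 226 in HP1ab_KO, between 317 and 349 in HP1a_KO, and between 102 and 114 in WT. In the HP1ab_KO liver the first 2 of these sums lay within the HP1a_KO range, while Ccnd2 (381) lay within the WT range. Of single tested markers, 3 of 12, 5 of 10 and 3 of 4 did not overlap between HP1ag_KO and HP1a_KO, in either direction. Of all genes, 36.7% did not overlap. No marker of these 3 lists was at 0 in all libraries, though 4 neutrophil markers were at 0 in some, and their part in the Ccnd2 values was not tested.

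E2f1, an activating E2F factor, had 43.7, 35.9 and 39.7 in HP1ag_KO, 53.5 in HP1ab_KO, 53.2 and 84.3 in HP1a_KO, and 77.4, 60.9 and 44.0 in WT. All HP1ag_KO livers were below all livers of the other groups, the nearest WT liver being just above. Its log2 difference was -0.57 ± 0.27 against WT and -0.74 ± 0.30 against HP1a_KO (limma adjusted p = 0.67 and 0.285). For HP1ag_KO against WT, E2f1 and Ccnd2 were the 2 members whose libraries did not overlap, both lower, where 13.5% of all genes did not overlap (7.05% lower).

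The E cyclins drive entry into S phase with Cdk2. Ccne1 had 45.6, 14.6 and 80.4 in HP1ag_KO, 96.7 in HP1ab_KO, 128 and 88.6 in HP1a_KO, and 119, 98.1 and 22.5 in WT. It had the widest range of the members, 8.81-fold between livers, and WT overlapped every other group. Its log2 difference was -1.47 ± 0.83 for HP1ag_KO against HP1a_KO (limma adjusted p = 0.424) and -0.75 ± 0.74 for HP1ag_KO against WT (limma adjusted p = 0.834). Ccne2 had 86.6, 66.2 and 177 in HP1ag_KO, 136 in HP1ab_KO, 204 and 126 in HP1a_KO, and 149, 142 and 87.1 in WT. Here HP1ag_KO replicate 3 lay above every WT liver and the other HP1ag_KO livers below the lowest WT liver. For HP1a_KO against WT its log2 difference was 0.38 ± 0.43 (limma adjusted p = 0.772). Cdk2, the kinase that both bind, lay between 239 and 374 in HP1ag_KO, at 334 in HP1ab_KO, between 368 and 400.0 in HP1a_KO and between 265 and 419 in WT.

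Taken by sign alone, the 6 genes of G1 and S were all lower in HP1ag_KO than in HP1a_KO, with a median of -0.70, beside 7204 of 13845 genes lower in all. In HP1a_KO all 6 were higher than in WT with a median of 0.36, beside 6884 of 13845 genes, and in HP1ag_KO 5 of 6 were lower than in WT with a median of -0.29, beside 7212 of 13845. These genes varied together (pairwise r from 0.19 to 0.91 over the 9 livers), so the 6 signs are not independent of each other. HP1ag_KO against HP1a_KO gave 5 members without overlap, beside 36.7% of all genes. Of these members Ccnd2, E2f1, Ccne1 and Pcna were lower (19.2% of all genes) and Tyms higher (17.5% of all genes).

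Replication genes were steadier. Pcna, the sliding clamp of DNA polymerases, had the highest mean of this role and the highest of all members per kilobase of exon (298). It had 715, 620.2 and 718 in HP1ag_KO, 694 in HP1ab_KO, 721 and 756 in HP1a_KO, and 656, 849 and 707 in WT. All 9 livers lay within 1.37-fold of each other, and its log2 difference was -0.10 ± 0.12 for HP1ag_KO against WT (95% interval -0.38 to 0.18, limma adjusted p = 0.871). The HP1a_KO livers differed from WT by 0.01 ± 0.13 (limma adjusted p = 0.984).

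Mcm2 to Mcm7 form the helicase that opens the origin. Mcm2 had 135, 130.1 and 172 in HP1ag_KO, 139 in HP1ab_KO, 139 and 173 in HP1a_KO, and 164, 186 and 136 in WT, with overlap between all groups and a log2 difference of -0.15 ± 0.18 for HP1ag_KO against WT (limma adjusted p = 0.875). Mcm4 had 259.7, 157 and 216 in HP1ag_KO, 192 in HP1ab_KO, 172 and 206 in HP1a_KO, and 172, 270.5 and 209 in WT, so that the HP1ab_KO and HP1a_KO livers all lay within the WT range. Mcm6 differed from its partners in spread, with 579, 295 and 576 in HP1ag_KO, 547 in HP1ab_KO, 506 and 743 in HP1a_KO, and 122, 953 and 575 in WT. Its WT livers spanned 7.82-fold, the widest WT range of the members, while those of Mcm7 spanned 1.45-fold and those of Mcm2 1.37-fold. The SD within genotypes on the log2 scale was 1.05 for Mcm6 and 0.74 for Mcm5, against 0.22 for Mcm2, 0.32 for Mcm3, 0.32 for Mcm4 and 0.22 for Mcm7.

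Cdc6, which loads the helicase, was the least abundant replication member per kilobase (3.69) and had 31.9, 13.5 and 27.4 in HP1ag_KO, 21.6 in HP1ab_KO, 14.7 and 21.5 in HP1a_KO, and 6.23, 27.6 and 9.36 in WT. The WT values ran from below to within the HP1ag_KO values, and the lowest rested on 7 reads. Its log2 difference, 0.89 ± 0.56 for HP1ag_KO against WT, was the largest positive one of the members in that comparison (limma adjusted p = 0.735).

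The nucleotide supply genes gave like pictures. Rrm1, the large subunit of ribonucleotide reductase, had 468, 378 and 519.5 in HP1ag_KO, 486 in HP1ab_KO, 361 and 523 in HP1a_KO, and 431, 693 and 465 in WT, with a log2 difference of -0.20 ± 0.22 for HP1ag_KO and -0.25 ± 0.25 for HP1a_KO against WT (limma adjusted p = 0.856 and 0.733). Tyms, thymidylate synthase, had 338, 359 and 411 in HP1ag_KO, 361 in HP1ab_KO, 275 and 336 in HP1a_KO, and 247, 471 and 317 in WT. Its HP1ag_KO values all lay just above those of HP1a_KO and inside the WT range, with a log2 difference of 0.27 ± 0.25 for HP1ag_KO against HP1a_KO (limma adjusted p = 0.629). Rrm2, the small subunit, lay between 146 and 326 in HP1ag_KO, at 311 in HP1ab_KO, between 205 and 309.7 in HP1a_KO and between 155 and 385 in WT.

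Mitotic genes showed the widest spread between livers. Mki67 (chr7:135689784-135716361), which encodes the Ki-67 protein that coats mitotic chromosomes and is the usual marker of cycling cells, had 673, 334 and 1175 in HP1ag_KO, 734 in HP1ab_KO, 538 and 1035 in HP1a_KO, and 354, 1377 and 591 in WT. Its lowest value was from HP1ag_KO replicate 2, with WT replicate 1 close to it, and its highest from WT replicate 2. The log2 difference was -0.04 ± 0.58 for HP1ag_KO (95% interval -1.38 to 1.30) and 0.17 ± 0.65 for HP1a_KO (95% interval -1.32 to 1.67) against WT, with limma adjusted p = 0.992 and 0.939. Leaving out 1 library at a time moved the HP1ag_KO difference between -0.49 and 0.49. At this spread a log2 difference of 1 in either direction lies inside the interval.

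Top2a (chr11:98992943-99024189), the topoisomerase that untangles sister chromosomes, had 569, 260.2 and 774 in HP1ag_KO, 480.2 in HP1ab_KO, 308 and 506 in HP1a_KO, and 219.7, 999 and 419.5 in WT. All 6 mutant livers lay between the lowest and the highest WT liver. The log2 difference was 0.10 ± 0.58 for HP1ag_KO and -0.19 ± 0.64 for HP1a_KO against WT (limma adjusted p = 0.979 and 0.932). Cenpa, the histone H3 variant of centromeres, had 179.5, 135 and 216 in HP1ag_KO, 148 in HP1ab_KO, 134 and 182 in HP1a_KO, and 126, 244 and 173 in WT, again with every mutant liver inside the WT range and a log2 difference of -0.01 ± 0.28 for HP1ag_KO against WT (limma adjusted p = 0.995).

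Kif23, a kinesin of the central spindle in cytokinesis, was the exception in this role. It had 74.7, 52.7 and 83.3 in HP1ag_KO, 97.5 in HP1ab_KO, 51.4 and 66.2 in HP1a_KO, and 42.7, 50.5 and 60.9 in WT. The HP1ab_KO liver was the highest of all 9, and WT replicate 2, the highest liver for most mitotic genes, was among the lowest. The log2 difference was 0.93 ± 0.34 for HP1ab_KO, 0.43 ± 0.24 for HP1ag_KO and 0.44 ± 0.21 for all 6 mutant livers against WT (limma adjusted p = 0.999, 0.711 and 0.795). For HP1ab_KO against WT, Kif23 was the 1 member outside the WT range, where 47.5% of all genes were (22.6% higher). For HP1a_KO against WT the 1 such member was Ccnd2, where 29.9% of all genes were (14.7% higher), and for all 6 mutant livers it was 0 members, where 3.14% of all genes were.

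Among G2 and M regulators, Ccna2 (cyclin A2, chr3:36564865-36572150), which acts from S phase to early mitosis, had 182, 98.7 and 312 in HP1ag_KO, 158 in HP1ab_KO, 99.1 and 239 in HP1a_KO, and 84.5, 368 and 162 in WT. Every mutant liver lay between WT replicate 1 and WT replicate 2. Its log2 difference was 0.05 ± 0.61 for HP1ag_KO and -0.15 ± 0.68 for HP1a_KO against WT (limma adjusted p = 0.99 and 0.949). Ccnb2, a B cyclin of mitotic entry, had 108, 55.0 and 182 in HP1ag_KO, 124 in HP1ab_KO, 78.9 and 151 in HP1a_KO, and 34.7, 145 and 102 in WT, with a log2 difference of 0.42 ± 0.52 for all 6 mutant livers against WT (limma adjusted p = 0.916). WT replicate 1 was the lowest of all livers here, and the other groups overlapped WT. Cdk1, the kinase that both activate, lay between 98.7 and 229 in HP1ag_KO, at 171 in HP1ab_KO, between 123 and 168 in HP1a_KO and between 93.4 and 322 in WT. Foxm1, the transcription factor of mitotic genes, lay between 24.7 and 78.5 in HP1ag_KO, at 72.7 in HP1ab_KO, between 44.0 and 80.0 in HP1a_KO and between 26.7 and 102 in WT.

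Of the checkpoint and passenger genes, Cdc20, the activator of the anaphase-promoting complex, had 203, 99.8 and 237 in HP1ag_KO, 119.9 in HP1ab_KO, 86.2 and 163 in HP1a_KO, and 51.6, 229 and 216 in WT. Its groups overlapped, and its log2 difference was 0.30 ± 0.60 for HP1ag_KO and -0.21 ± 0.67 for HP1a_KO against WT (limma adjusted p = 0.926 and 0.929). Ube2c, the ubiquitin-conjugating enzyme of that complex, had 74.7, 43.7 and 93.7 in HP1ag_KO, 58.3 in HP1ab_KO, 36.7 and 52.5 in HP1a_KO, and 25.8, 92.4 and 53.4 in WT. The mean was higher in HP1ag_KO than in HP1a_KO, with 1 HP1ag_KO liver between the HP1a_KO livers, and the log2 difference of 0.61 ± 0.52 had limma adjusted p = 0.606. Bub1b, the checkpoint kinase-like protein BubR1, had 125, 75.1 and 167 in HP1ag_KO, 117 in HP1ab_KO, 86.2 and 91.2 in HP1a_KO, and 73.8, 165 and 110.5 in WT. Both HP1a_KO livers lay between the lowest and the middle liver of HP1ag_KO and of WT, with a log2 difference of -0.31 ± 0.40 against WT (limma adjusted p = 0.795). Cdca8, the passenger protein borealin, had 58.3, 43.7 and 50.2 in HP1ag_KO, 49.5 in HP1ab_KO, 38.5 and 51.6 in HP1a_KO, and 37.4, 97.1 and 48.7 in WT, where WT replicate 2 alone was far above the rest. Its log2 difference was -0.33 ± 0.39 for HP1a_KO against WT (limma adjusted p = 0.781).

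**Figure D3:**
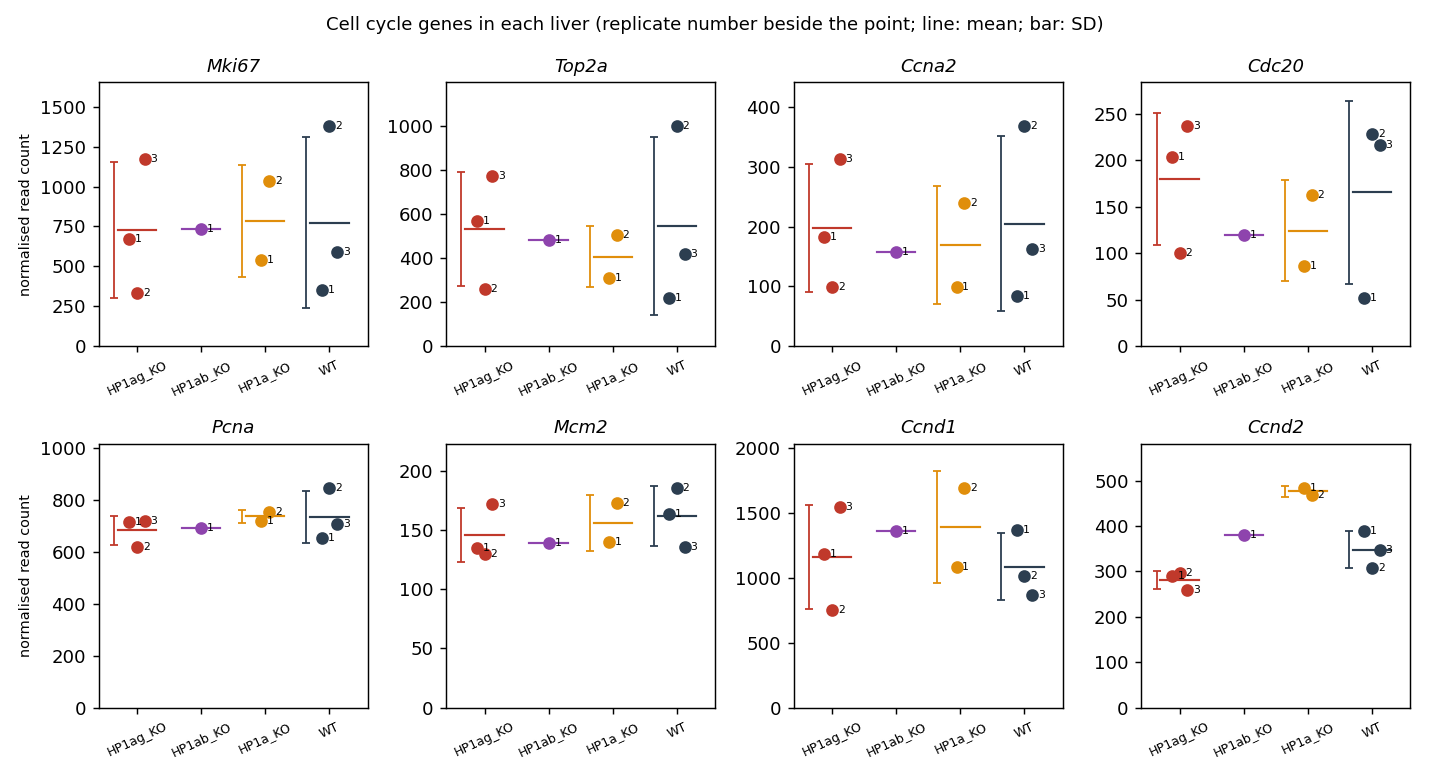
Normalised read counts of 8 genes in each liver, with the replicate number beside each point, the group mean as a line and the SD as a bar (HP1ab_KO has 1 liver). Mki67, Top2a, Ccna2 and Cdc20 span the range within WT and HP1ag_KO, Pcna and Mcm2 vary little, and Ccnd2 is below WT in all HP1ag_KO livers and above WT in all HP1a_KO livers.

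The mitotic genes varied together from liver to liver. WT replicate 2 was above WT replicate 1 in 28 of 28 mitotic genes, HP1a_KO replicate 2 above HP1a_KO replicate 1 in 28 of 28, and HP1ag_KO replicate 3 above HP1ag_KO replicate 2 in 28 of 28. Of the 28, WT replicate 1 gave the lowest value of the 9 livers for 20 and WT replicate 2 the highest for 20. The 3 WT livers spanned a median of 3.83-fold in mitotic genes and 1.61-fold in replication genes, against 1.30-fold over all genes tested. For the all-gene figure a pseudocount of 1 was added to each value, which was not done for the members. The SD within genotypes had a median of 0.88 on the log2 scale in mitotic genes, 0.32 in replication genes and 0.39 in genes of G1 and S, against 0.22 over all genes, and 43 of 45 members were above that all-gene median. In 14 of 45 members (31.1%) all 6 mutant livers lay inside the range of the 3 WT livers, beside 7.61% of all genes, and the 14 included 7 of 11 genes of the kinetochore, spindle, chromosomes and cytokinesis.

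**Figure D4:**
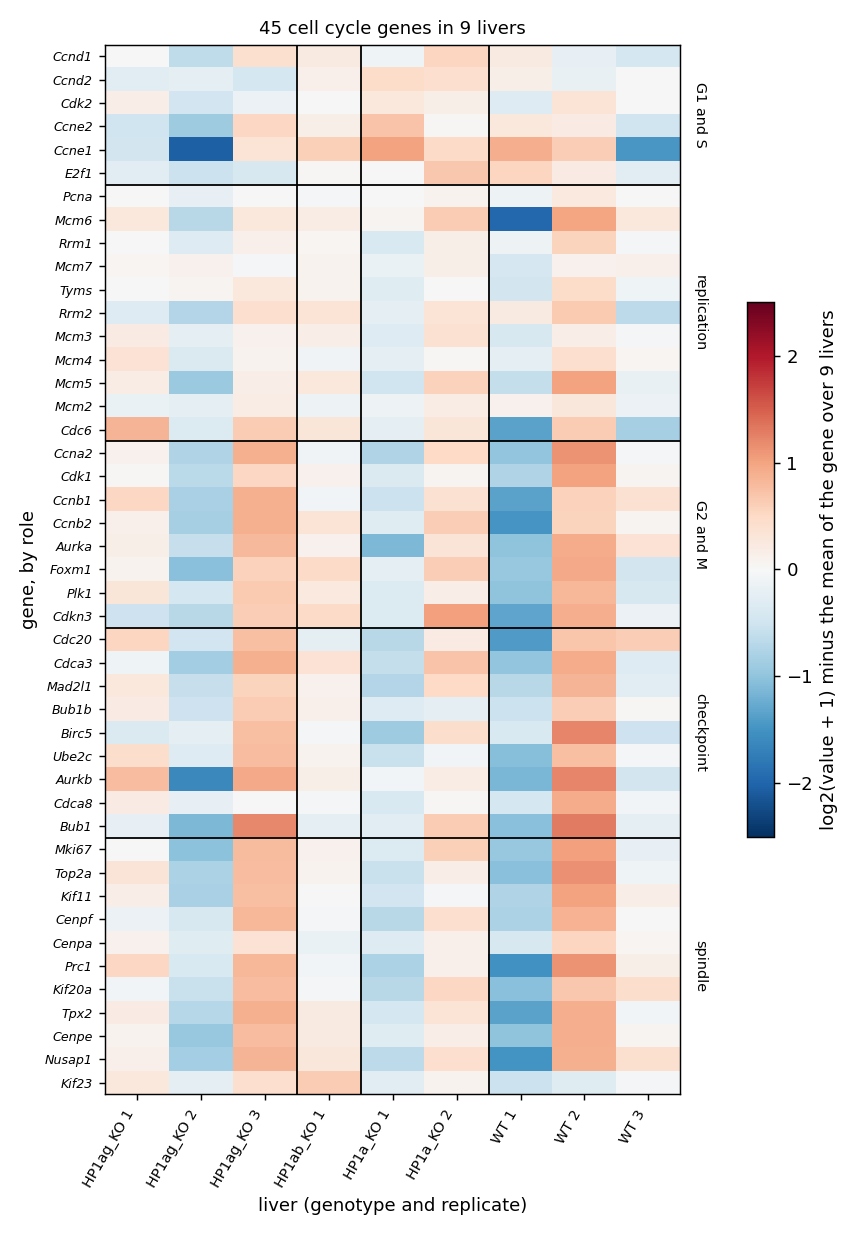
Values of the 45 genes in the 9 livers as log2(value + 1) minus the mean of the gene, with livers in columns by genotype and genes in rows by role. The mitotic rows are low in WT replicate 1, HP1ag_KO replicate 2 and HP1a_KO replicate 1 and high in WT replicate 2 and HP1ag_KO replicate 3, and the rows of G1 and S follow another order.

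Likeness was described by Pearson r over the 9 livers, which share their libraries and size factors, with no test. The 378 pairs of mitotic genes all had a positive r, with a median of 0.88, while pairs of replication genes had a median of 0.67 and pairs of a gene of G1 and S with a mitotic gene a median of 0.17. Against the mean of the other mitotic genes, r was 0.99 for Tpx2, which nucleates spindle microtubules, 0.98 for Top2a, 0.98 for Ccna2, 0.97 for the kinetochore motor Cenpe and 0.96 for Mki67 (Spearman's rho 0.98, 0.98, 0.98, 0.95 and 0.97). Without WT replicate 1 and HP1ag_KO replicate 2, the 2 livers farthest from the median, these r were 0.99, 0.97, 0.99, 0.96 and 0.94. Replication genes followed the mitotic mean to unequal degrees, with r of 0.89 for Mcm5, 0.85 for Mcm6 and 0.79 for Pcna, and of 0.59 for Mcm7, 0.55 for Rrm2 and 0.54 for Mcm2. The least like were the genes of G1 and S, at 0.57 for Cdk2, 0.31 for Ccnd1, 0.19 for Ccne2, 0.18 for Ccne1, -0.05 for E2f1 and -0.38 for Ccnd2. Without the 2 farthest livers r was -0.13 for Cdk2, -0.66 for Ccnd2 and between 0.01 and 0.30 for the other genes of G1 and S. With the mean of its genotype taken from each value, r was 0.72 for Cdk2 and -0.94 for Ccnd2. The other genes of G1 and S then lay between 0.05 and 0.35. Kif23 was the mitotic member least like the others (r of 0.51, and 0.11 without the 2 farthest livers), followed by Birc5 and Cdca8 (0.79 each), which were level with Pcna and below Mcm5.

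**Figure D5:**
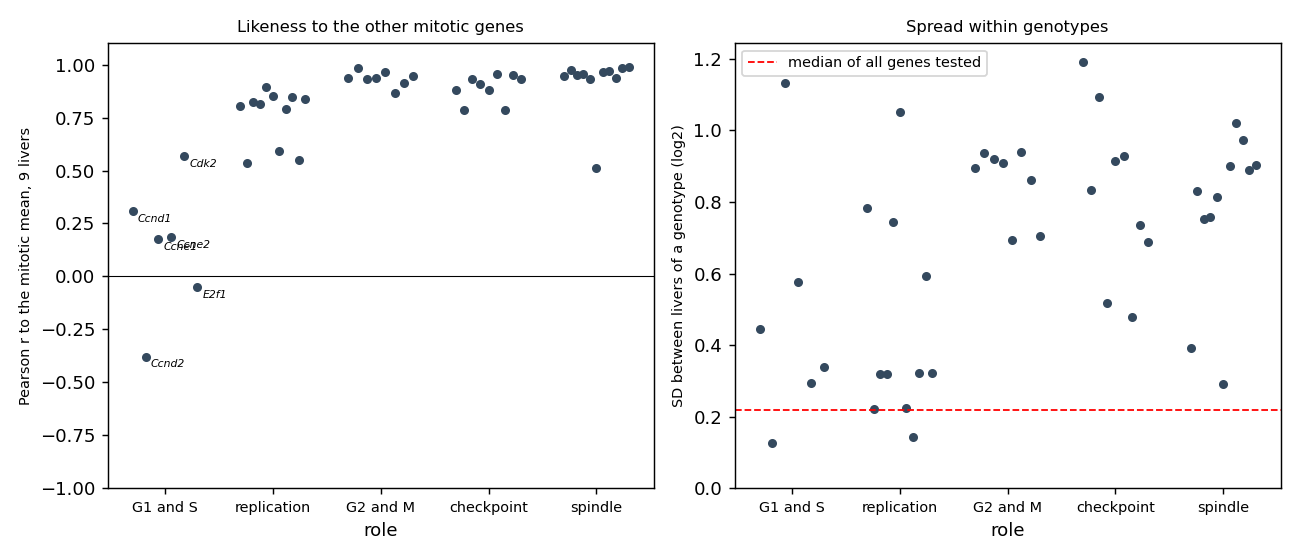
Left, Pearson r of each gene to the mean of the other mitotic genes over 9 livers; right, SD between livers of a genotype (log2), with the median of all genes tested as a dashed line. Mitotic genes lie between 0.79 and 0.99 except Kif23 (0.51), replication genes overlap them, genes of G1 and S lie at 0.57 or below, and 43 of 45 genes have an SD above the dashed line.

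Cell type markers were set beside this pattern. Over the 9 livers the mean of the mitotic genes was compared with the mean of each marker list. The r was 0.64 for cholangiocyte, 0.60 for B cell, 0.48 for erythroid, 0.40 for stellate cell and fibroblast, and 0.30 for T and NK cell markers. It was 0.26 for neutrophil, 0.18 for Kupffer cell and macrophage, -0.16 for megakaryocyte and platelet, -0.51 for hepatocyte and -0.59 for sinusoidal endothelial markers. Single tested markers had a median r of 0.14 for cholangiocyte, 0.60 for B cell and 0.43 for erythroid lists. Their median was 0.30 for stellate cell and fibroblast, -0.14 for hepatocyte and -0.22 for sinusoidal endothelial lists. Erythroid markers, 10 of 11 tested, summed to between 6491 and 10695 in HP1ag_KO and to 21351 in HP1ab_KO. They summed to between 12841 and 14841 in HP1a_KO, and between 8529.6 and 19697 in WT. Their highest livers, HP1ab_KO and WT replicate 3, were not the highest for mitotic genes. Their lowest livers, HP1ag_KO replicate 2 (6491) and WT replicate 1 (8529.6), were also those with the lowest mitotic sums. The 8 cholangiocyte markers, of which 7 were tested, summed to between 1108 and 1406 in HP1ag_KO, 1731 in HP1ab_KO, between 1077 and 1306 in HP1a_KO, and between 986 and 1943 in WT, with the lowest in WT replicate 1 and the highest in WT replicate 2. The 7 B cell markers, of which 6 were tested, summed to between 238 and 624 in HP1ag_KO, 199 in HP1ab_KO, between 182 and 235 in HP1a_KO, and between 135 and 394 in WT. Their lowest sum was in WT replicate 1 and their highest in HP1ag_KO replicate 2, the livers with the lowest mitotic sums. With each tested marker counted alike, as for the r, the B cell mean was -1.01 in WT replicate 1 and -0.23 in HP1ag_KO replicate 2. That mean was highest in HP1ag_KO replicate 1, at 0.77. No list had a marker at 0 in all libraries, and the part of these cells in the result was not tested.

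Other genes of the division cycle varied with the members to unequal degrees. The mean of 61 tested mitotic genes outside the members had an r of 0.99 with the mitotic members, that of 33 other replication genes 0.93, that of 12 inhibitors and pocket proteins 0.89 and that of 57 replication-dependent histone genes 0.86. The mean of 15 other regulators of G1 and S had an r of 0.67, and the median r of its single genes was 0.37. Single genes had a median r of 0.87 for the other mitotic genes, 0.69 for the other replication genes and 0.78 for the histone genes. For the inhibitors and pocket proteins it was 0.44, with a positive r in 8 of 12 genes. The other mitotic genes summed to 11654, 9842 and 13971 in HP1ag_KO, 11678 in HP1ab_KO, 9838 and 12471 in HP1a_KO, and 8519, 15809 and 11263 in WT, in nearly the order of the members, with both ends again in WT. Limma called 0 genes of each list in each comparison, as did edgeR and DESeq2. For HP1ag_KO against WT, 32 of 61 other mitotic genes, 12 of 33 other replication genes and 4 of 15 other regulators of G1 and S were higher, with median log2 differences of 0.01, -0.12 and -0.18. For HP1a_KO against WT these counts were 17, 11 and 8, with medians of -0.12, -0.11 and 0.01.

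Some other genes of these lists with small p were little like the mitotic mean, with an r of -0.25 for Mcm10, 0.25 for Spc24, 0.17 for Orc6 and 0.20 for Sass6. Mcm10, which helps to activate the helicase, had 804, 2122 and 2159 in HP1ag_KO, 2010.4 in HP1ab_KO, 1926 and 3349.9 in HP1a_KO, and 5112, 2450.3 and 4931 in WT. Each HP1ag_KO liver was below each WT liver, as was so for 7.05% of all genes. The log2 difference of -1.36 ± 0.45 did not pass (limma adjusted p = 0.584). In HP1a_KO, Spc24 of the kinetochore averaged 141 ± 53.9 against 265 ± 43.2 in WT (log2 difference -0.95 ± 0.29), and Orc6 of the origin recognition complex 83.4 ± 22.0 against 133 ± 11.7 in WT (log2 difference -0.68 ± 0.21), each with limma adjusted p = 0.432. Sass6, needed to copy centrioles, averaged 104 ± 14.1 in HP1a_KO against 67.4 ± 11.3 in WT (log2 difference 0.62 ± 0.23, limma adjusted p = 0.457).

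Of 14 inhibitors and pocket proteins, 12 were tested and 0 passed limma, edgeR or DESeq2 in any comparison. Cdkn1a, the p21 inhibitor of cyclin-dependent kinases, had 64.7, 242 and 18.9 in HP1ag_KO, 32.0 in HP1ab_KO, 22.0 and 69.7 in HP1a_KO, and 27.6, 25.7 and 56.2 in WT. A single liver, HP1ag_KO replicate 2, stood far above the rest, and the same liver had low mitotic values. WT replicate 1, with the lowest mitotic sum, had 27.6, and HP1a_KO replicate 1, also with a low sum, had 22.0. A link between Cdkn1a and the mitotic values was not tested. The log2 difference was 0.96 ± 0.86 for HP1ag_KO against WT (limma adjusted p = 0.817). Ccng1, cyclin G1, a target of p53, averaged 1030.1 ± 110 in HP1a_KO against 1431 ± 235 in WT (log2 difference -0.47 ± 0.15, limma adjusted p = 0.446). Every HP1a_KO liver was below every WT liver, as was so for 2091 of 13845 genes tested.

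Outside the members and the pathway lists, the genes most like the mitotic mean were found by r over the 9 livers among the 13845 genes tested. They were Mastl (0.98), Knstrn (0.97), D17H6S56E-5 (0.97), Iqgap3 (0.97), Diap3 (0.97), Kntc1 (0.97), Neurl1b (0.96), Gsg2 (0.96), Cenpi (0.95) and Hist1h3f (0.94). Mastl, the Greatwall kinase of mitotic entry, had 63.8, 30.3 and 81.4 in HP1ag_KO, 46.3 in HP1ab_KO, 34.9 and 71.4 in HP1a_KO, and 23.1, 98.1 and 55.2 in WT, with its lowest and highest value in the same WT livers as the mitotic sum. An r above 0.9 was reached by 82 of 13845 genes, of which 22 were members, 27 were in the pathway lists and 33 in neither.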

How the data were processed

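The authors deposited 1 table of normalised counts (a signal), in which the reads of a gene are scaled by 1 size factor for each library. Per the labels' protocols, ribosomal RNA was removed and the libraries kept the strand. Tools named in the submitters' processing notes, in no stated role, are Bowtie2 2.1.0, CASAVA 1.8.2, DESeq2 1.0.19, HTSeq 0.5.4p3 and TopHat2 2.0.10, with build mm10. Which annotation release was used, and whether strand was used in counting, is not given in the sources used here. Of the members, 15 share exon bases with another gene in GENCODE vM21, 13 of them with a gene on the opposite strand. For 6 (Ccnd1, Ccne2, Ccna2, Ube2c, Kif20a and Prc1) over 10% of exon bases are shared, and their levels are less certain.

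Dividing the deposited values of a library by what 1 read was worth in it gave whole reads for 100% of them, with a tolerance of 0.1 read. The recovered reads served only for edgeR and DESeq2. Members held between 7 and 1970 reads per library. Pairs of replicates differed beyond sampling (chi-square of 52.9 to 136 per degree of freedom), so each counted as 1 sample. Titles carry an individual number for each liver and no litter or sex, so p-values measure the spread between these samples.

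Limma 3.58.1 with a mean trend in R 4.3.3 was run on log2(value + 1), a pseudocount of 1, which understates differences of low genes. A single fit held all 9 libraries, with 5 residual and 3.13 prior degrees of freedom, for genes with a mean of at least 10, with two-sided p-values and Benjamini-Hochberg adjustment. As alternatives, edgeR 4.0.16 (quasi-likelihood) and DESeq2 1.42.0 (Wald) were run, beside pseudocounts of 0.5 and 5, no filter and a filter at 50, TMM, equal totals, limma without the trend or with robust shrinkage, fits of the compared groups only, and leaving out each library. The members and lists were chosen with earlier results of these data known. Given in full were the member with the highest mean in each role, Mki67, Top2a, Ccnd1 and Mcm2, and the 3 members per direction with the smallest p in each comparison; other values, pathway genes included, are examples, and 1 pathway gene is not reported here. The mitotic mean is the average of centred log2 values, without the gene itself where a member was compared with it. Summaries and plots used Python 3.11.15, matplotlib 3.10.9, numpy 2.4.6 and pandas 2.3.3. The tests were tried on simulated data with less spread than most mitotic genes show, so that trial does not speak for these genes.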

Additional observations from a re-analysis of the deposited data

How the results depend on the processing

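Limma called 0 members in each comparison under each alternative run. DESeq2 called 1 member (Ccnd2) for HP1ag_KO against HP1a_KO. Counts over all genes, 0 in limma, were 99 with DESeq2 for HP1ag_KO, 87 for HP1a_KO, 11 for HP1ab_KO and 46 for all 6 mutant livers against WT, and 457 for HP1ag_KO against HP1a_KO (29 to 457 without single libraries, which was not run with DESeq2 for the others). With a pseudocount of 5 limma called 1 gene for HP1a_KO against WT, with no filter 54 for HP1ab_KO against WT, and without the trend 7 for HP1ag_KO against HP1a_KO. Leaving out 1 library gave 0 to 2 genes for HP1ag_KO against WT, 0 to 5 for HP1a_KO against WT, 0 to 2 for HP1ab_KO against WT, 0 to 1 for all 6 against WT and 0 to 5 for HP1ag_KO against HP1a_KO. The cause was not tested.

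The median difference of the members lay near 0 and turned with the tool and with single libraries. EdgeR and DESeq2 gave -0.021 and -0.033 for HP1ag_KO and -0.063 and -0.084 for all 6 against WT, and DESeq2 gave -0.010 for HP1ab_KO. Against WT, with limma, it was -0.31 for HP1ag_KO without WT replicate 1 and 0.44 without WT replicate 2. For HP1a_KO against WT it was -0.34 without WT replicate 1 and 0.37 without HP1a_KO replicate 1, and for HP1ag_KO against HP1a_KO -0.26 without HP1a_KO replicate 1 and 0.37 without HP1a_KO replicate 2. For HP1ab_KO it ran from -0.20 to 0.42 and for all 6 from -0.32 to 0.39, with the same 2 WT livers at the ends.

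For HP1ag_KO against WT, leaving out single libraries turned the log2 difference of Ccna2 (-0.45 to 0.60), Ccnd1 (-0.17 to 0.35), Cdc20 (-0.40 to 0.68), Mki67 (-0.49 to 0.49), Pcna (-0.18 to 0.0049), Top2a (-0.41 to 0.68) and Ube2c (-0.058 to 0.84). For HP1a_KO against WT it turned Ccna2 (-0.79 to 0.48), Cdc20 (-0.90 to 0.25), Cdca8 (-0.61 to 0.063), Mcm2 (-0.20 to 0.11), Mki67 (-0.30 to 0.70), Pcna (-0.069 to 0.12), Rrm1 (-0.52 to 0.013) and Top2a (-0.71 to 0.38). It also turned Mcm4 for HP1ab_KO (-0.31 to 0.018), and Ccnb2 (-0.17 to 0.85) and Rrm1 (-0.33 to 0.010) for all 6 mutant livers. For HP1ag_KO against WT, edgeR and DESeq2 gave -0.027 and -0.041 for Ccna2 and -0.010 and -0.023 for Top2a, and equal totals gave 0.013 for Mki67. Equal totals gave -0.031 for Pcna in HP1a_KO.

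Ccnd2 for HP1ag_KO against HP1a_KO kept its direction under each alternative. The leave-one-out run of DESeq2 was added after the results were seen. With 2 or 3 livers a group and an SD near 0.88 on the log2 scale, differences of mitotic genes between genotypes were not detectable unless large. No paired analysis was run, because the labels name no pairs and carry individual numbers, none of which is shared between groups. Some livers have consecutive numbers, namely HP1ag_KO replicate 1 with WT replicate 3, and HP1ag_KO replicate 3 with WT replicate 2. Their mitotic sums were 4280 with 3853, and 6485 with 7341. The 2 HP1a_KO livers also have consecutive numbers, and their mitotic sums were further apart, at 2712 and 4914. The labels do not say what such livers share, and they were not treated as pairs.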

Other observations

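Genes at the opposite end of likeness to the mitotic mean were looked up after the values were seen. Hyou1, a chaperone of the endoplasmic reticulum, had an r of -0.91 over the 9 livers, with 5847, 11458 and 5382 in HP1ag_KO, 5811 in HP1ab_KO, 8343 and 5684 in HP1a_KO, and 12139 and 5591 and 6064 in WT. Its highest livers were HP1ag_KO replicate 2 and WT replicate 1, the livers with the lowest mitotic sums. Ddit4, an inhibitor of mTORC1 signalling, had an r of -0.90, with 140 and 173 and 75.7 in HP1ag_KO, 88.7 in HP1ab_KO, 343 and 114 in HP1a_KO, and 309.5 and 51.4 and 170 in WT. Edem1, which sorts misfolded glycoproteins for degradation, also had an r of -0.90, and Dgcr6 and Megf9 had -0.91 and -0.92.

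Wee1, the kinase that holds Cdk1 inactive, had 54.7, 30.3 and 208 in HP1ag_KO, 172 in HP1ab_KO, 159.6 and 133 in HP1a_KO, and 253, 311 and 52.4 in WT. Its lowest livers, HP1ag_KO replicates 1 and 2 and WT replicate 3, were also the lowest for Ccne1. Replication-dependent histone genes summed to 9115, 10496 and 11919 in HP1ag_KO, 12065 in HP1ab_KO, 10177 and 11455 in HP1a_KO, and 10849, 15568 and 8439.9 in WT, with the highest sum in the liver that also had the highest mitotic sum.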
